A study of Mus musculus with 4 samples.

Results

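Macrophages of the mouse heart were selected on their UMI counts in single-nucleus RNA libraries, as nuclei that carried at least 4 UMIs (unique molecular identifiers, each standing for 1 captured transcript) over 8 macrophage genes, spread over at least 3 of them. The 8 genes were Mrc1, F13a1, Adgre1, Csf1r, C1qa, C1qb, Mertk and Msr1. A nucleus also needed at least 500 genes, at most 5% mitochondrial UMIs, under 0.5% of UMIs from Ttn, Ryr2, Trdn, Ctnna3, Rbm20 and Tnnt2, under 3 UMIs over Pdgfra, Col1a1 and Dcn, and under 3 UMIs over Pecam1, Cdh5 and Ptprb. These limits kept 794 of 34165 nuclei, of which 84 came from the chow control, 137 from chow YAP5SA, 165 from the HFD control and 408 from HFD YAP5SA.

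Macrophages are phagocytes that clear dead cells and debris, recycle iron and lipid, and release growth factors and chemokines. The heart holds resident macrophages, which descend largely from embryonic precursors and carry genes such as Lyve1, Timd4, Folr2 and Cd163, and macrophages that arise from blood monocytes and carry the chemokine receptor Ccr2. In newborn mice, cardiac macrophages are required for the regrowth of injured heart muscle.

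The libraries were made from whole hearts of wild-type mice at postnatal day 12, with 1 library in each of 4 groups. Pups were given saline (control) or AAV9 carrying YAP5SA at postnatal day 7, and their mothers received chow or a high-fat diet (HFD) for 5 days. YAP5SA is a form of the transcriptional co-activator YAP that escapes inhibition by the Hippo pathway, and the cTnT promoter restricts its expression to cardiomyocytes, so the macrophages were not the cells it was meant to reach. The design compared vector with saline on each maternal diet.

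The controls received no virus, so the virus and its cargo cannot be told apart. Groups were taken from the sample titles. For chow YAP5SA and the HFD control the treatment label names the other diet. Were that label right, every control heart would be a chow heart and every YAP5SA heart an HFD heart, and vector and diet could not be told apart in any comparison. Which libraries had YAP5SA does not depend on the label used. No source used here states how many hearts went into a library, or that the 2 libraries of an arm are biological replicates. P-values measure the spread between libraries of an arm. When a library is left out of a YAP5SA or diet test, its group has no replicate. The spread then comes from the other group alone, so calls kept or lost in such fits cannot be ascribed to that library.

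The libraries held between 6977 and 11158 barcodes and between 43408234 and 61191454 UMIs, and 11 to 34 barcodes were shared by any pair of libraries. The chow YAP5SA library stood apart: it held 297 UMIs of Xist, which is transcribed from the inactive X of females, and 4562 of the Y-linked Ddx3y, against at least 101436 and at most 17 in the others. Sex was therefore not balanced over the groups. The added reference sequence nsp13, whose meaning no source here states, held 556 and 231 UMIs in the nuclei of the YAP5SA libraries other than macrophages, against 0 and 1 in the controls. The macrophage sums held 271378 UMIs in the chow control, 510575 in chow YAP5SA, 513026 in the HFD control and 1505642 in HFD YAP5SA. The median macrophage held 2772 to 3318 UMIs, and its mitochondrial share was 0.433% in chow YAP5SA and 0.17 to 0.195% in the other libraries.

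Genes among the 8 that chose the nuclei are described first, and genes beyond those 8 after them. Levels are UMIs per 1000000 (CPM) of the summed macrophage nuclei of a library. The mannose receptor Mrc1 stood at 3309 CPM in the chow control, 3545 in chow YAP5SA, 3910.1 in the HFD control and 2388 in HFD YAP5SA, and the coagulation factor subunit F13a1 at 2325, 1302, 2481 and 1269 CPM in the same order. Mrc1 was lowest in HFD YAP5SA, and F13a1 was lower in both YAP5SA libraries than in both controls. The scavenger receptor Msr1 stood at 276 CPM in the chow control, 1195 in chow YAP5SA, 331 in the HFD control and 671 in HFD YAP5SA, higher in both YAP5SA libraries. These genes chose the nuclei, so their levels are a description and were not tested.

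Of the genes the rule did not use and with a mean of at least 50 CPM in macrophages, the haemoglobin scavenger receptor Cd163 was the most enriched, with a mean of 202 CPM in macrophages and 1.96 in all other nuclei. Ms4a4a, a tetraspan membrane protein of macrophages, averaged 142 against 1.82 CPM, and Aoah, a lipase that inactivates bacterial lipopolysaccharide, 586 against 9.88 CPM. Innate immune sensors were also among the 20 most enriched genes at that level. Nlrp3, the sensor of the inflammasome, averaged 69.9 against 1.21 CPM, and the RNA-sensing receptors Tlr7 and Tlr8 averaged 116 and 54.3 against 2.14 and 0.889 CPM. The pan-leukocyte gene Ptprc stood at 811, 679.6, 719 and 744 CPM and the myeloid transcription factor gene Spi1 at 239.5, 188, 216 and 206 CPM in the same library order, a narrow range in both cases. These ratios follow in part from the choice of nuclei and were not tested.

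Defining genes of several other leukocytes were at 0. Cd3d of T cells and Ly6g of neutrophils had no UMI in the macrophages of any library, and the 6 natural killer cell markers summed to at most 3.99 CPM. The 11 T cell markers summed to 3.92 to 43.8 CPM, the 8 dendritic cell markers to 28.6 to 66.3 CPM, the 6 neutrophil markers to 18.6 to 66.6 CPM and the 6 mast cell markers to 2.66 to 7.37 CPM. Markers of other heart cells were also found in the macrophage sums. The 14 cardiomyocyte markers summed to 1503, 1065, 1542 and 1000.2 CPM in macrophages, against 9900.1 to 16608 CPM in other nuclei. The 10 fibroblast markers summed to 914, 619, 1142 and 500.1 CPM and the 10 endothelial markers to 166, 96, 140.3 and 65.1 CPM, against at least 2485 and 726 CPM in other nuclei. The 7 pericyte markers summed to 678, 145, 376 and 118 CPM, against 632, 342, 620.1 and 373 CPM in other nuclei, so that in the chow control they stood higher in macrophages. All 4 sums were lower in both YAP5SA libraries than in both controls, and their part in the results was not tested. The 7 B cell markers summed to 524 to 1242 CPM, with 3 or more UMIs in 24.8 to 42.4% of macrophages. Nearly all came from Ebf1, which pericytes and fibroblasts also express, at 579, 206, 446 and 87.7 CPM, and from the B cell scaffold gene Bank1, at 468, 360.4, 784 and 429 CPM against a mean of 11.6 in other nuclei. The 5 erythroid markers summed to 132 to 739 CPM. The pericyte markers came from few nuclei: only 3, 3, 8 and 6 macrophages held 3 or more of their UMIs.

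Macrophages made up a larger share of nuclei in HFD YAP5SA than in the other libraries. Their share was 1.32% (1.05 to 1.63%) in the chow control, 1.58% (1.33 to 1.87%) in chow YAP5SA, 1.97% (1.68 to 2.29%) in the HFD control and 3.8% (3.45 to 4.18%) in HFD YAP5SA, with exact Clopper-Pearson 95% intervals. The interval of HFD YAP5SA lay above the other 3, and in that order each of those 3 overlapped its neighbour. Intervals cover counting error only.

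The mean share was 2.69% ± 1.57 (SD, n = 2) in the YAP5SA libraries and 1.64% ± 0.457 in the controls, which did not differ beyond the spread between libraries (exact two-sided permutation p = 0.667). HFD libraries exceeded chow libraries by 1.44 percentage points (exact permutation p = 0.333, the smallest that 2 libraries against 2 allow). Counted only among nuclei under the cardiomyocyte gene limit, macrophages made up 3.66% in the chow control, 4.32% in chow YAP5SA, 3.58% in the HFD control and 8.78% in HFD YAP5SA. Both YAP5SA libraries then exceeded both controls, again at p = 0.333 by the exact test. At most 1% mitochondrial UMIs put chow YAP5SA, at 1.30%, below the chow control, at 1.46%. With the 8 macrophage genes as the only limits the shares were 2.93%, 3.28%, 5.38% and 7.31%.

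**Figure D1:**
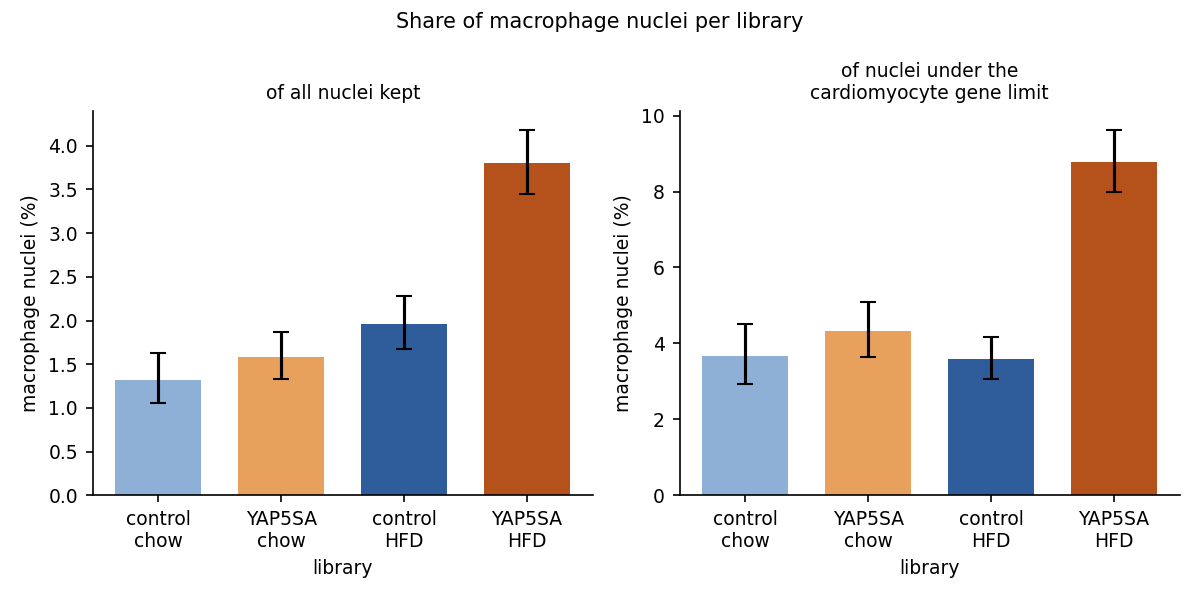
Share of macrophage nuclei in each library (%), of all nuclei kept (left) and of nuclei under the cardiomyocyte gene limit (right). Bars are the share and error bars exact 95% Clopper-Pearson intervals; HFD YAP5SA stands highest in both, with 8.78% of nuclei under the limit.

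The limit of 4 UMIs over the 8 genes sat in a sparse part of the distribution, but the limits on genes of other heart cells did not. Of 187, 284, 452 and 784 nuclei that passed the macrophage gene limits, 84, 137, 165 and 408 were kept, in the library order used below. With all other limits met, 8 macrophages held exactly 4 UMIs of the 8 genes, all in HFD YAP5SA. A further 0, 3, 2 and 6 nuclei held 3 UMIs in the chow control, chow YAP5SA, the HFD control and HFD YAP5SA. With 3 UMIs a nucleus met the limit on the number of genes only if each came from a different gene, so few could. The median macrophage held 19 to 22 such UMIs.

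The macrophages of YAP5SA hearts differed from those of control hearts in 390 genes, among them Spp1, Fn1 and Ccr2, which rose, and Abca1, Slc40a1 and Cd163, which fell. The UMIs of the macrophage nuclei of each library were summed, and the 2 YAP5SA sums were tested against the 2 control sums with edgeR's quasi-likelihood test and Benjamini-Hochberg adjustment over all 10074 genes with a mean of at least 10 CPM. At an adjusted p below 0.05, 150 genes rose (1.49% of genes tested) and 240 fell (2.38%). All 390 had the same sign on both diets. Of all 10074 genes tested, 3606 were higher on both diets and 2743 lower on both. The libraries of the 390 did not overlap between the arms, which held for 50.8% of all genes tested. The test used these same libraries, so both traits largely follow from the calls and are no further support for them. Of the genes called, 127 of the 150 and 142 of the 240 stood at least as high in macrophages as in other nuclei.

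The split of calls depended on scaling. Scaled by total UMIs alone, 207 genes rose and 201 fell. With diet as a further term the test called 13 genes higher and 44 lower, of which 56 were among the 390. DESeq2 called 62 and 129. Leaving out chow YAP5SA, the library set apart by Xist and Ddx3y, left its arm without a replicate, as did leaving out any other library. In such fits the spread comes from the other arm alone, so they cannot show whether the calls depend on the library left out.

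Genes at least 2-fold apart were found on both diets. Within chow, 1470 genes were at least 2-fold higher in YAP5SA (14.6% of genes tested) and 1056 at least 2-fold lower (10.5%). Within HFD, 1053 were higher (10.5%) and 773 lower (7.67%). The diet comparisons share no library, and 395 genes were 2-fold higher on both, 307 lower on both and 99 opposite. The balance within chow depended on scaling, with 1275 higher and 1120.0 lower under TMM and 1275 and 1415 under DESeq2 size factors. These are 1 library against 1, with no test.

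**Figure D2:**
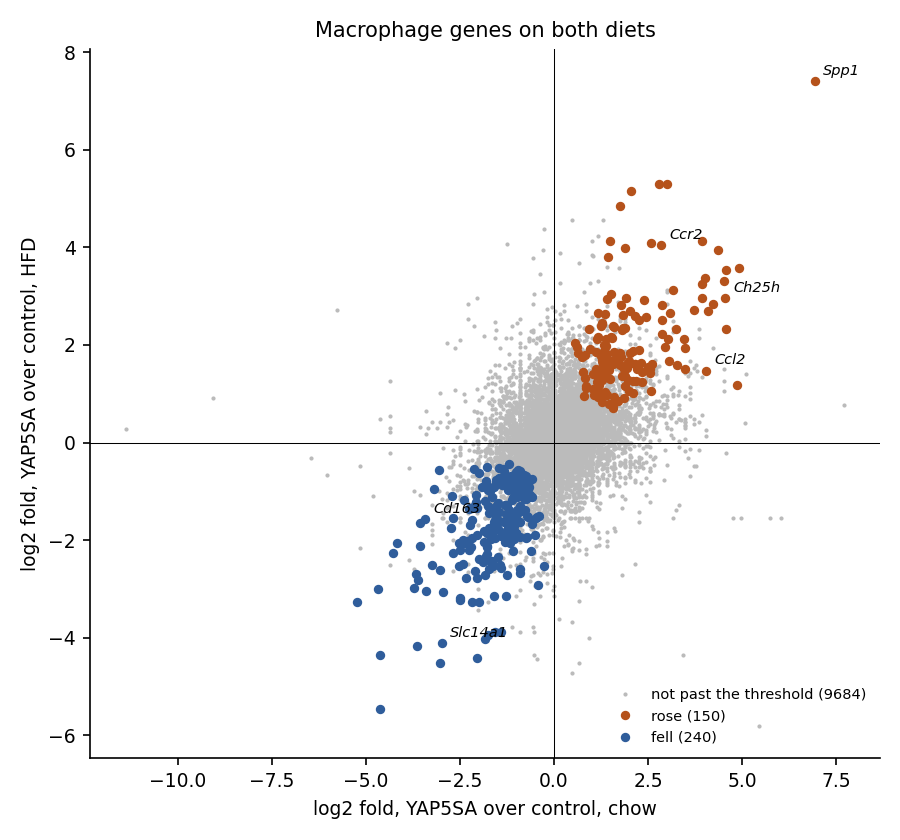
Log2 fold of YAP5SA over control in macrophages on chow (horizontal) and on HFD (vertical), 1 point per gene of 10074 tested. Points in colour are the 150 genes that rose and the 240 that fell. All of them lie in the quadrants where both diets have the same sign, which largely follows from their being called on these same libraries.

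Among the genes that rose with the smallest adjusted p were a secreted matrix protein, a matrix scaffold and a monocyte chemokine receptor. Spp1, which encodes the secreted glycoprotein osteopontin, had no UMI in either control library (chr5:104435118-104441050, mm10, plus strand). It stood at 223 CPM in chow YAP5SA and 164 in HFD YAP5SA, at least 20.2-fold and 28.1-fold higher than a control count of 3 per library would give (adjusted p = 0.00031). The arms did not overlap.

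Fn1, which encodes fibronectin (chr1:71585520-71653200, minus strand), stood at 103 CPM in the chow control, 1600.2 in chow YAP5SA, 87.7 in the HFD control and 842 in HFD YAP5SA (log2 fold change 3.60, SE 0.33, adjusted p = 0.00031). Both YAP5SA libraries lay far above both controls, with the chow library the higher. Alcam, an adhesion molecule of activated leukocytes, stood at 136 CPM in the chow control, 1136 in chow YAP5SA, 207 in the HFD control and 899.9 in HFD YAP5SA (log2 fold change 2.45, SE 0.24, adjusted p = 0.000469).

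Ccr2, the receptor through which blood monocytes follow Ccl2 into tissue (chr9:124101950-124113557, plus strand), stood at 33.2 CPM in the chow control, 251 in chow YAP5SA, 13.6 in the HFD control and 241 in HFD YAP5SA (log2 fold change 3.46, SE 0.36, adjusted p = 0.000514). The YAP5SA libraries were close to each other and the controls were both low. Ch25h, which makes the oxysterol 25-hydroxycholesterol, stood at 3.69 CPM in the chow control, 129 in chow YAP5SA, 11.7 in the HFD control and 97.6 in HFD YAP5SA (log2 fold change 3.56, SE 0.47, adjusted p = 0.00285). Gpr183, the receptor of a related oxysterol that steers leukocyte migration, stood at 118 CPM in the chow control, 299.7 in chow YAP5SA, 109 in the HFD control and 402 in HFD YAP5SA (log2 fold change 1.56, SE 0.23, adjusted p = 0.00511).

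The remaining genes with the smallest adjusted p held to the same order of arms. Pla2g4a, the cytosolic phospholipase that frees arachidonic acid, stood at 155, 445, 136 and 422 CPM in the library order above (log2 fold change 1.50, adjusted p = 0.00424). The guanine deaminase gene Gda stood at 11.1, 94, 9.75 and 75.1 CPM (log2 fold change 2.92, adjusted p = 0.00511), Zranb3, which remodels stalled replication forks, at 55.3, 272, 66.3 and 249.7 CPM (log2 fold change 1.99, adjusted p = 0.00224), and the long non-coding RNA Pvt1 at 181, 830.4, 232 and 561 CPM (log2 fold change 1.64, adjusted p = 0.00511). Of these 10 genes, Gpr183 (adjusted p = 0.055) and Pvt1 (adjusted p = 0.0604) missed the threshold with diet as a further term.

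Genes that fell with the smallest adjusted p included a cholesterol exporter, a urea transporter and surface proteins of myeloid cells. Abca1, which exports cholesterol to apolipoproteins (chr4:53030787-53159895, minus strand), stood at 1194 CPM in the chow control, 423 in chow YAP5SA, 1191 in the HFD control and 348 in HFD YAP5SA (log2 fold change -1.72, SE 0.20, adjusted p = 0.00133). The controls were nearly equal and both YAP5SA libraries lay well below them. Ms4a4a stood at 228 CPM in the chow control, 45 in chow YAP5SA, 236 in the HFD control and 57.8 in HFD YAP5SA (log2 fold change -2.22, SE 0.25, adjusted p = 0.00128), and Clec4a1, a C-type lectin receptor of myeloid cells, at 184, 39.2, 158 and 35.9 CPM in the same order (log2 fold change -2.27, SE 0.29, adjusted p = 0.00224).

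The urea transporter gene Slc14a1 stood at 114 CPM in the chow control, 13.7 in chow YAP5SA, 131 in the HFD control and 7.31 in HFD YAP5SA (log2 fold change -3.79, SE 0.39, adjusted p = 0.000514). Plekhg5, a guanine nucleotide exchange factor, stood at 394, 19.6, 257 and 53.8 CPM (log2 fold change -3.04, adjusted p = 0.00133), and the collagen prolyl hydroxylase gene P3h2 at 155, 11.8, 166 and 23.2 CPM (log2 fold change -3.13, adjusted p = 0.000888). In each, both YAP5SA libraries were far below both controls. Zfp804b, a zinc finger gene, stood at 332, 7.83, 201 and 20.6 CPM (log2 fold change -4.06, adjusted p = 0.00033).

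Smaller falls were seen in Tbc1d4, which controls the movement of glucose transporter vesicles, at 649, 223, 659 and 264 CPM (log2 fold change -1.50, adjusted p = 0.00285). The clathrin adaptor subunit gene Ap2a2 stood at 531, 229, 733 and 219 CPM (log2 fold change -1.59, adjusted p = 0.0033). Dclre1c, which encodes the DNA repair nuclease Artemis, stood at 405, 135, 548 and 182 CPM (log2 fold change -1.66, adjusted p = 0.0041). All 10 kept their calls under every alternative run that kept all libraries. Clec4a1, Ms4a4a, Ifi207, Cd209f and the Ccl2, Ccl7 and Ccl12 genes belong to families of similar sequence, so reads may be shared between copies and their values are uncertain to that extent.

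**Figure D3:**
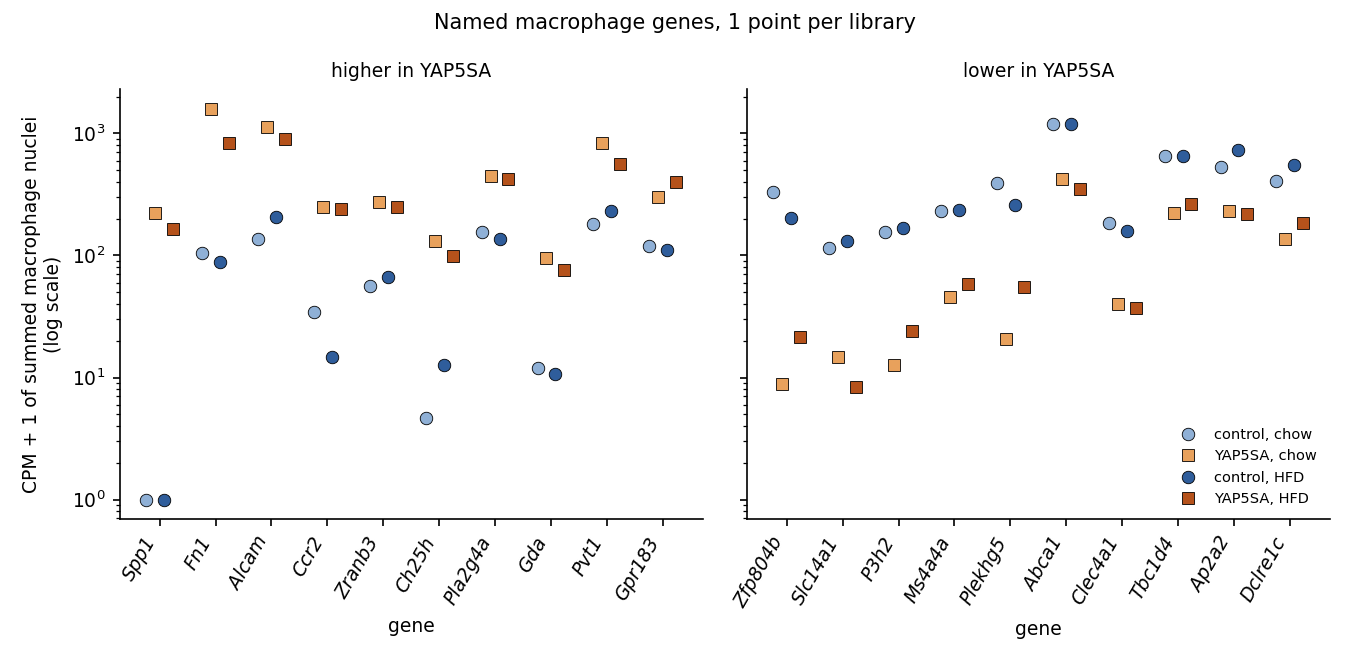
CPM + 1 (log scale) of the 10 genes per direction with the smallest adjusted p, 1 point per library. Squares (YAP5SA) lie above circles (control) for every gene on the left, where Spp1 is at 0 CPM in both controls, and below them for every gene on the right.

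The sequence before the start of 4 genes past the threshold is shown because they stand for recruitment, residence and cholesterol export: Spp1 and Ccr2 among those that rose, Cd163 and Abca1 among those that fell. Each is the 250 bases before the RefSeq start on GRCm38.p6, read 5′ to 3′ on the gene's strand. They lie at chr5:104434861-104435110 (plus strand), chr9:124101933-124102182 (plus), chr6:124304401-124304650 (plus) and chr4:53159896-53160145 (minus). Capitals mark GAGGAAGT, a site of the myeloid factor PU.1, in Spp1, and in Abca1 the known element through which oxysterol-activated LXR drives it, spelled as TGACCG and AGTAACC with any 2 bases between.
Spp1: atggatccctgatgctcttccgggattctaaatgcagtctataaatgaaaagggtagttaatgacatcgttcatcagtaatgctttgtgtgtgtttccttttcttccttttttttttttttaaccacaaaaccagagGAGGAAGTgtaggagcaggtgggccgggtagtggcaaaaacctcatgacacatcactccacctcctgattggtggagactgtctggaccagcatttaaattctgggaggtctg
Ccr2: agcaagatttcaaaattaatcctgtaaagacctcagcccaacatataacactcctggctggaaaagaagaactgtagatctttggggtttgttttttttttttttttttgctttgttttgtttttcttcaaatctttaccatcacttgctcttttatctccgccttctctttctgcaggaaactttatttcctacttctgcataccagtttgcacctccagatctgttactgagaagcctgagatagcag
Cd163: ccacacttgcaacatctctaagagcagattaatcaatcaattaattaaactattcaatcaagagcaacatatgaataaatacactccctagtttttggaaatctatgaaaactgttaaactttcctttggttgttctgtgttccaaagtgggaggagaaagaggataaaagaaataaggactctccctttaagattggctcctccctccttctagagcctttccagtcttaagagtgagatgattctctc
Abca1: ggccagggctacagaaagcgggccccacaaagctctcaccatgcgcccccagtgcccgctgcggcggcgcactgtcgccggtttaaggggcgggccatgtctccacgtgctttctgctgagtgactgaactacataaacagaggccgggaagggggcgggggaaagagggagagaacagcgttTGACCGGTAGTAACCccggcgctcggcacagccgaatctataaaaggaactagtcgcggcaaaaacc
The PU.1 letters lay 113 bases before the start of Spp1, and the LXR element 67 bases before that of Abca1. The Ccr2 and Cd163 windows held none of the motifs searched. Both strands were searched for these motifs and for TGANTCA of AP-1 and GGAATG of TEAD, which partners YAP. They occur in 2.44% (PU.1), 0.00913% (LXR element), 6.75% (AP-1) and 12.6% (TEAD) of all 32851 windows of this length. Of the 10 named genes that rose and the 10 that fell, 8 and 8 had a window, and the matches in Spp1 and Abca1 were the only ones. The LXR element was spelled after that of Abca1, so its match there is no finding, and letters that match or are missing in this window say nothing about the factor.

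Genes of resident cardiac macrophages were lower in YAP5SA hearts, though not all of them. Of 14 tested, 5 fell and none rose, where 2.38% of all genes tested fell and 1.49% rose. Their median log2 fold change was -0.93, against 0.01 over all genes tested. Cd163 stood at 453 CPM in the chow control, 41.1 in chow YAP5SA, 234 in the HFD control and 79 in HFD YAP5SA (log2 fold change -2.47, SE 0.34, adjusted p = 0.00417). The growth factor gene Igf1 stood at 343 CPM in the chow control, 90.1 in chow YAP5SA, 246 in the HFD control and 130.2 in HFD YAP5SA (log2 fold change -1.44, SE 0.25, adjusted p = 0.0114). For both genes the arms did not overlap and chow YAP5SA was lowest.

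The scavenger receptor gene Stab1 stood at 1091, 541, 1076 and 361 CPM (log2 fold change -1.36, SE 0.23, adjusted p = 0.00877), the selenium carrier gene Selenop at 365, 43.1, 150.1 and 102 CPM (log2 fold change -1.75, adjusted p = 0.0382) and the lectin gene Cd209f at 51.6, 1.96, 25.3 and 5.98 CPM (log2 fold change -2.99, adjusted p = 0.0278). Lyve1, the hyaluronan receptor that marks a resident subset, was not called, at 51.6, 88.1, 101 and 72.4 CPM (adjusted p = 0.918). Folr2 and Vsig4 also missed the threshold, with adjusted p of 0.833 and 0.747, and Timd4, the phosphatidylserine receptor of resident macrophages, was too low to test, at 3.69, 3.92, 23.4 and 2.66 CPM. With diet as a further term the 5 calls ended, at adjusted p between 0.0584 and 0.184. Without the chow control, Selenop (adjusted p = 0.0671) and Cd209f (adjusted p = 0.0659) lost theirs.

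Genes of monocyte-derived macrophages were split between those that rose, those that were tested and not called, and those too low to test. Of 6 tested, Ccr2, Fn1 and S100a6 rose, the rest were not called and none fell (median log2 fold change 1.39). Among all genes tested, 1.49% rose. S100a6, a calcium-binding protein gene, stood at 22.1, 62.7, 25.3 and 86.3 CPM (log2 fold change 1.57, adjusted p = 0.0385), and lost its call when the chow control, the HFD control or HFD YAP5SA was left out (adjusted p = 0.0527, 0.0671 and 0.1). The genes of classical monocytes themselves were near 0: Ly6c2 stood at 0, 3.92, 0 and 1.99 CPM, Plac8 at 3.69, 5.88, 1.95 and 5.31 CPM and Chil3 at 0 in all 4 libraries. Of the integrins, Itgam, a subunit of complement receptor 3, rose from 122 and 105 CPM in the controls to 294 and 204 (adjusted p = 0.0454), a call that ended without the HFD control (adjusted p = 0.0917) or chow YAP5SA (adjusted p = 0.0607).

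Chemokine and cytokine genes rose for a few ligands and receptors, where 1.49% of all genes tested rose. Of 10 chemokine genes tested, 3 rose, among them Ccl7 and Ccr2, and none fell (median 0.60), and of 11 inflammatory genes Ccl2 and Tnf rose (median 0.26). Ccl2, the ligand of Ccr2, stood at 62.6 CPM in the chow control, 1065 in chow YAP5SA, 105 in the HFD control and 295 in HFD YAP5SA (log2 fold change 2.84, SE 0.51, adjusted p = 0.0126). The chow library of the YAP5SA arm was by far the highest, and the arms did not overlap. Ccl7, a further ligand of Ccr2, stood at 11.1, 378, 52.6 and 120.2 CPM (log2 fold change 2.63, adjusted p = 0.0295).

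Tnf, the tumour necrosis factor gene, stood at 40.5 CPM in the chow control, 159 in chow YAP5SA, 13.6 in the HFD control and 114 in HFD YAP5SA (log2 fold change 2.39, SE 0.44, adjusted p = 0.0137). The arms did not overlap. Il1b, which encodes interleukin 1 beta, was low in all libraries, at 11.1, 17.6, 15.6 and 7.31 CPM (adjusted p = 0.812), and the inducible nitric oxide synthase gene Nos2 had no UMI. Ccl12 and Nlrp3 missed the threshold, with adjusted p of 0.195 and 0.454. On HFD the median log2 fold of the inflammatory genes was -0.10, and on chow 0.83. With diet as a further term, Ccl2, Ccl7 and Tnf had adjusted p of 0.0941, 0.151 and 0.055.

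Some genes of alternative activation and of the interferon response were called. Of all genes tested, 1.49% rose and 2.38% fell. Arg1, the arginase of alternatively activated macrophages, was detected almost only in YAP5SA libraries, at 0, 54.8, 1.95 and 34.5 CPM (adjusted p = 0.0104; 0.0604 with diet as a further term), and was the only call among 6 alternative activation genes tested. Their median was -0.20 in the test and 0.36 within each diet, which differ in sign. Of 10 interferon genes, Ifi207 and Ddx60 fell (adjusted p = 0.0342 and 0.0284) and none rose (median -0.56). Of the classic interferon targets, Ifit1, Isg15 and Oas3 stood below 2 CPM in every library.

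Antigen presentation by MHC class II was barely detected at this age. H2-Aa, H2-Ab1 and H2-Eb1 stood below 2 CPM in every library and the invariant chain gene Cd74 at 7.37, 9.79, 3.9 and 16.6 CPM. Only 3 of 9 genes of this list could be tested, where 2.38% of all genes tested fell. Of the 3, the co-stimulator Cd86 fell, from 376 and 405 to 215 and 247 CPM (adjusted p = 0.038).

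Lipid genes moved in both directions, and the iron exporter fell. Of 18 lipid handling genes tested, Spp1, Lgals3 and Cd9 rose and Abca1 and Fabp4 fell (median -0.01). Among all genes tested, 1.49% rose and 2.38% fell. Lgals3, the galactose-binding lectin of lipid-laden macrophages, stood at 11.1 CPM in the chow control, 54.8 in chow YAP5SA, 15.6 in the HFD control and 60.4 in HFD YAP5SA (log2 fold change 1.97, SE 0.43, adjusted p = 0.0283). The tetraspanin gene Cd9 stood at 25.8, 139, 44.8 and 125 CPM (log2 fold change 1.73, adjusted p = 0.0171), and Fabp4, a fatty acid carrier, at 118, 35.3, 79.9 and 29.2 CPM (log2 fold change -1.70, adjusted p = 0.0215). Fabp4 stood at a mean of 125 CPM in other nuclei, and endothelial marker sums were lower in YAP5SA macrophages as well, whose part in the fall was not tested. The lipoprotein gene Apoe stood at 571, 186, 791 and 480.2 CPM (adjusted p = 0.0979) and the lipid receptor gene Trem2 at 22.1, 29.4, 9.75 and 49.8 CPM (adjusted p = 0.162), neither past the threshold.

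Slc40a1, which encodes ferroportin, the only known iron exporter of mammalian cells, stood at 479 CPM in the chow control, 82.3 in chow YAP5SA, 209 in the HFD control and 49.8 in HFD YAP5SA (log2 fold change -2.50, SE 0.38, adjusted p = 0.00511). The arms did not overlap, and the call held under every alternative run that kept all libraries. The transferrin gene Trf fell from 188 and 111 to 41.1 and 37.2 CPM (log2 fold change -1.99, adjusted p = 0.00923; 0.055 with diet as a further term). Among all genes tested, 2.38% fell. The other 9 of 11 iron genes tested missed the threshold. Among them were haem oxygenase Hmox1, at 133, 102, 76 and 29.2 CPM (adjusted p = 0.404), and the ferritin genes Fth1 and Ftl1, with adjusted p of 0.387 and 0.787.

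Of all genes tested, 3.87% were called in either direction and 2.38% fell. None of 19 lysosomal genes was called (median 0.05), and of 12 genes for the uptake of dead cells only Stab1 fell (median -0.23). Lists of this size would hold few calls at those shares, so these counts do not set either list apart. Of 20 surface sensor genes, Il6ra, P2rx7 and Ptafr fell and none rose. Ptafr, the receptor of platelet-activating factor, stood at 99.5 CPM in the chow control, 33.3 in chow YAP5SA, 111 in the HFD control and 28.6 in HFD YAP5SA (log2 fold change -1.88, SE 0.32, adjusted p = 0.00923). Il6ra and P2rx7 lost their calls without the HFD control (adjusted p = 0.11 and 0.0644).

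Cell cycle genes were higher in YAP5SA macrophages on both diets. Of 30 tested, 8 rose and none fell, where 1.49% of all genes tested rose and 2.38% fell. On both diets 28 were higher, as were 3606 of all 10074 genes tested. The median log2 fold change was 1.07 (1.20 within chow and 1.09 within HFD). Top2a, the topoisomerase of dividing cells, stood at 151 CPM in the chow control, 335 in chow YAP5SA, 168 in the HFD control and 436 in HFD YAP5SA (log2 fold change 1.19, SE 0.22, adjusted p = 0.0148). Mki67, which encodes the proliferation antigen Ki-67, stood at 88.4, 139, 70.2 and 252 CPM (log2 fold change 1.28, adjusted p = 0.0464). The arms did not overlap for either gene, but Mki67 lost its call without HFD YAP5SA (adjusted p = 0.197) or the HFD control (adjusted p = 0.0581).

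The mitotic genes Kif15 and Knl1 rose from 51.6 and 93.6 to 208 and 228 CPM (adjusted p = 0.0188) and from 47.9 and 93.6 to 190.0 and 273 CPM (adjusted p = 0.0194). Cenpf, Anln, Bub1 and Tpx2 made up the other calls. Anln missed the threshold without HFD YAP5SA (adjusted p = 0.15), and Bub1 and Tpx2 without the chow control (adjusted p = 0.0718 and 0.12). All 8 missed it with diet as a further term, at adjusted p from 0.0591 to 0.151. Replication genes were not called: Pcna stood at 29.5, 84.2, 54.6 and 67.1 CPM (adjusted p = 0.354) and Mcm6 at 55.3, 88.1, 81.9 and 79 CPM (adjusted p = 0.853).

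A pair of glycolysis genes rose as well. Of 15 tested, these were Pgk1 and Slc16a3, and none fell (median 0.76), where 1.49% of all genes tested rose. Pgk1, a glycolytic kinase gene, stood at 3.69 CPM in the chow control, 60.7 in chow YAP5SA, 9.75 in the HFD control and 40.5 in HFD YAP5SA (log2 fold change 2.59, SE 0.56, adjusted p = 0.0269). Slc16a3, the lactate exporter of glycolytic cells, stood at 0, 37.2, 0 and 14.6 CPM (adjusted p = 0.0382). Both missed the threshold with diet as a further term (adjusted p = 0.103 and 0.103). The pyruvate kinase gene Pkm stood at 44.2, 217, 58.5 and 88.3 CPM (adjusted p = 0.0981) and the glucose transporter gene Slc2a1 at 0, 60.7, 7.8 and 11.3 CPM (adjusted p = 0.205). None of 19 fatty acid oxidation genes was called (median -0.30), where 3.87% of all genes tested were called in either direction.

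Some identity genes were called, against 3.87% of all genes tested in either direction. Of 19 transcription factors of macrophages only Fli1 fell, from 1452 and 1191 to 695 and 727 CPM (adjusted p = 0.0226; 0.0557 without the chow control). Maf, a factor of resident macrophages, stood at 1747, 973, 1265 and 984 CPM (adjusted p = 0.0924). Of 22 other macrophage markers 1 rose and 2 fell: Itgam, above, the phosphoinositide-binding adaptor Adap2 (adjusted p = 0.0486; 0.242 without the chow control) and the endosomal proton exchanger Slc9a9, at 4020.2, 1684, 4395 and 1809 CPM (log2 fold change -1.35, SE 0.20, adjusted p = 0.0047).

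Of the genes known as YAP targets in other cells, 1 was called in macrophages, where 1.49% of all genes tested rose. Of 13 tested, Ankrd1, a stress-responsive muscle gene, rose, from 40.5 and 39 to 166 and 128 CPM (adjusted p = 0.0125; 0.0644 with diet as a further term), against a mean of 1109.9 CPM in other nuclei. Ccn1 and Ccn2 missed the threshold (adjusted p = 0.571 and 0.0957), and the median was 0.09. Of 14 growth and repair factor genes, Tgfbi, an extracellular matrix protein gene, rose from 111 and 109 to 364 and 199 CPM (adjusted p = 0.041; 0.0643 without chow YAP5SA) and Igf1 fell. Their median was -0.20 in the test, 0.40 within chow and -0.07 within HFD, which differ in sign.

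Markers of other heart cells were also lower in the YAP5SA sums, where 2.38% of all genes tested fell. Of 14 cardiomyocyte markers Myh6, Myl2 and Actn2 fell (median -0.83), of 8 fibroblast markers Col3a1, Lama2 and Abca8a fell (-1.23), and of 5 pericyte markers 4 fell, among them Rgs5, Abcc9 and Notch3 (-2.32). None of 6 endothelial markers was called (-1.37). Col3a1, Lama2, Abca8a and Actn2 lost their calls without the HFD control (adjusted p = 0.0559, 0.109, 0.119 and 0.119), Abcc9 without the chow control (adjusted p = 0.0614), and Myl2 without the chow control or HFD YAP5SA (adjusted p = 0.106 and 0.0625). Of 2 B cell markers tested, Ebf1, which pericytes and fibroblasts also express, fell (adjusted p = 0.00989), and of 4 erythroid markers Hbb-bs fell (adjusted p = 0.0339; 0.248 without the HFD control). Restricted to macrophages with under 3 pericyte UMIs, the test called 104 genes higher and 159 lower, and Ebf1 and Abcc9 missed the threshold (adjusted p = 0.306 and 0.614).

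**Figure D4:**
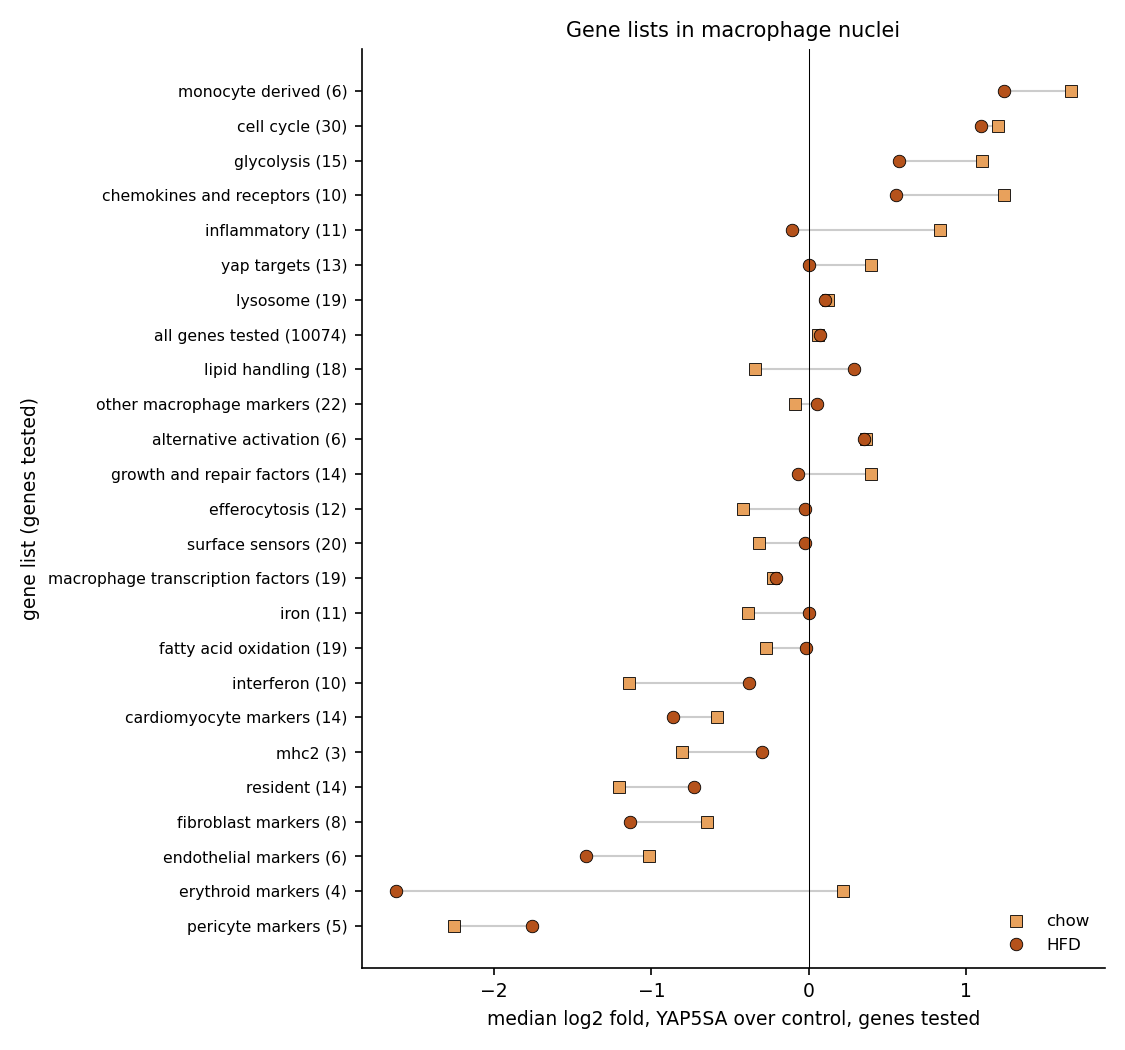
Median log2 fold of YAP5SA over control in macrophages for each gene list with at least 3 genes tested (number in brackets), on chow (squares) and HFD (circles). Monocyte-derived and cell cycle genes lie above the median of all genes, at 0.06 and 0.07, on both diets, and resident genes lie below it.

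The shifts could be seen in the share of nuclei that carried each transcript. To compare nuclei of unlike depth, every macrophage was thinned to 2000 UMIs, which left 71 nuclei in the chow control, 115 in chow YAP5SA, 130 in the HFD control and 346 in HFD YAP5SA and left out 13, 22, 35 and 62. A Ccr2 UMI was found in 4.23% (0.88 to 11.9%) of nuclei in the chow control, 21.7% (14.6 to 30.4%) in chow YAP5SA, 0.769% (0.0195 to 4.21%) in the HFD control and 17.3% (13.5 to 21.8%) in HFD YAP5SA. The intervals of YAP5SA and control did not overlap on either diet. Fibroblast nuclei, which should lack Ccr2, held it in 0.0962%, 0.297%, 0.0471% and 1.08%, at median depths of 4284, 3912.5, 4394 and 3904 UMIs before thinning. Without thinning the macrophage shares were 4.76%, 25.5%, 1.82% and 22.1%.

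Spp1 was found in 17 of 115 macrophages of chow YAP5SA (14.8%) and 48 of 346 of HFD YAP5SA (13.9%). In the chow control none of 71 macrophages held it and in the HFD control none of 130, with upper exact limits of 5.06% and 2.80%. Other nuclei of the YAP5SA libraries held it less often: it was found in fibroblast nuclei in 1.49% and 3.24%, and in cardiomyocyte nuclei in 1.19% and 1.89%. After thinning, no such nucleus of the controls held it. Before thinning, Spp1 stood at 0.092 CPM in the fibroblast nuclei of the HFD control.

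Cd163 and Slc40a1 ran the other way. A Cd163 UMI was found in 35.2% (24.2 to 47.5%), 9.57% (4.87 to 16.5%), 29.2% (21.6 to 37.8%) and 13.3% (9.9 to 17.3%) of macrophages in the same library order, and in at most 0.188% of fibroblast nuclei. Slc40a1 was found in 40.8% (29.3 to 53.2%), 10.4% (5.51 to 17.5%), 22.3% (15.5 to 30.4%) and 7.51% (4.97 to 10.8%), against at most 3.17% of fibroblast nuclei. Both genes were found in a smaller share of nuclei in YAP5SA on each diet, with separate intervals.

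Fn1 was found in 9.86% (4.06 to 19.3%), 48.7% (39.3 to 58.2%), 11.5% (6.6 to 18.3%) and 45.1% (39.8 to 50.5%) of macrophages. Fibroblasts make Fn1 themselves, with shares from 46.3% to 57.5% that were lower in both YAP5SA libraries. In cardiomyocyte nuclei the share was 4.18% to 5.89%, and in endothelial nuclei 28.7% to 36.4%. Fn1 is therefore no marker of macrophages here, and the comparison rests on the macrophage shares, which did not overlap between the arms.

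Macrophages with 3 or more UMIs over the 30 cell cycle genes made up 25.4% (15.8 to 37.1%), 60% (50.4 to 69%), 39.2% (30.8 to 48.2%) and 63.9% (58.6 to 68.9%). The intervals of YAP5SA and control did not overlap on either diet. The class is a range of a score rather than a type: 11, 10, 22 and 28 nuclei held 2 such UMIs and 3, 7, 9 and 19 held 3. Fibroblast nuclei showed a like difference, with 19.5%, 41.4%, 14.5% and 37.6%, whereas in endothelial nuclei the share was lower in both YAP5SA libraries, with 18.2%, 12.8%, 18.6% and 10.3%. The counts read these genes only, so they do not show that a nucleus was dividing.

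**Figure D5:**
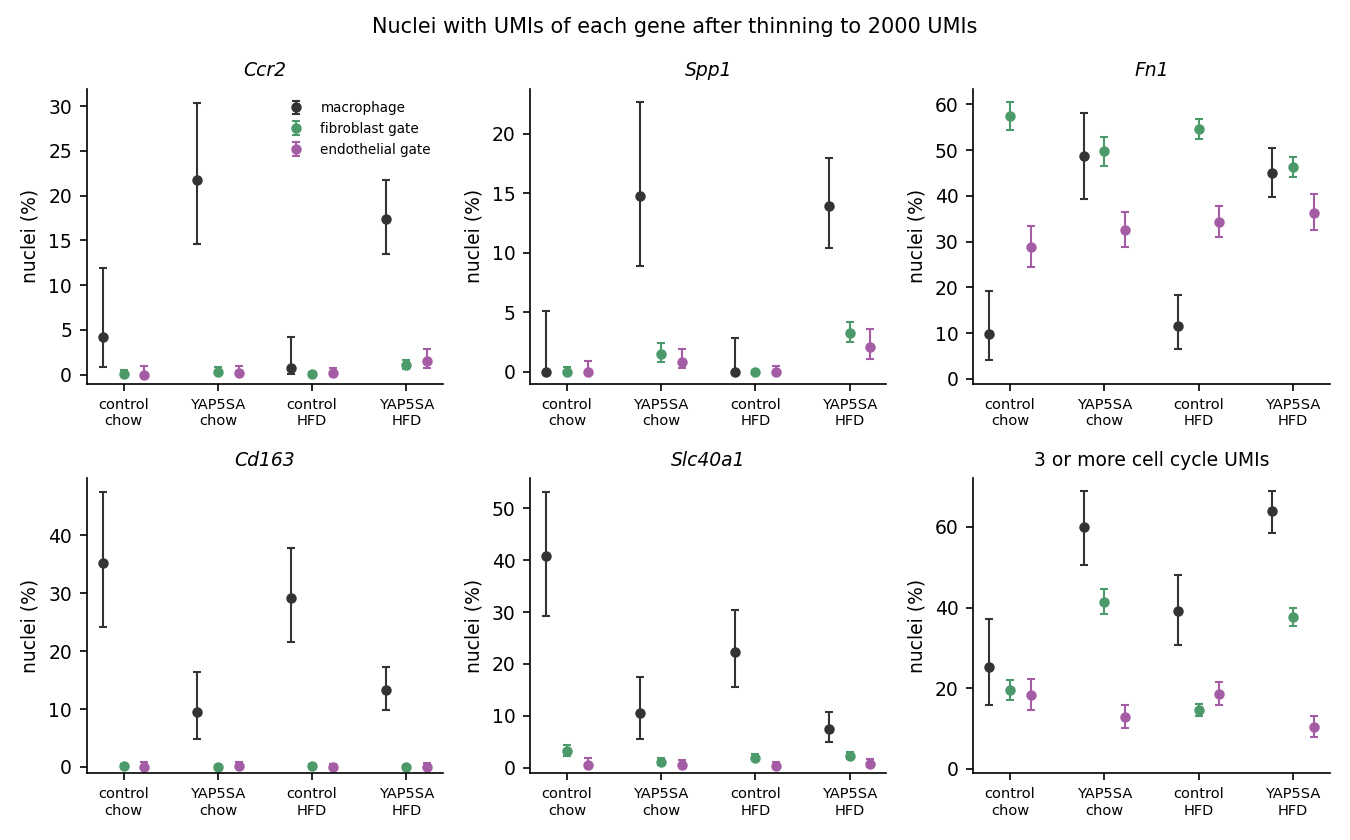
Share of nuclei (%) with a UMI of each gene, or with 3 or more cell cycle UMIs, after thinning to 2000 UMIs, for macrophages (black), fibroblast (green) and endothelial (purple) nuclei. Points are shares and bars exact 95% intervals; Ccr2 and Spp1 stand higher and Cd163 and Slc40a1 lower in YAP5SA macrophages, away from both other types.

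Within YAP5SA macrophages, Fn1 and Spp1 were found more often in nuclei with a Ccr2 UMI than in those without. Among thinned nuclei of chow YAP5SA, Fn1 was found in 24 of 25 nuclei with a Ccr2 UMI and 32 of 90 without. In HFD YAP5SA the counts were 52 of 60 and 104 of 286. Spp1 was found in 10 of 25 nuclei with Ccr2 against 7 of 90 without on chow, and in 20 of 60 against 28 of 286 on HFD.

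Resident genes were rarer beside Ccr2. Lyve1 was found in 0 of 25 nuclei with a Ccr2 UMI on chow and 1 of 60 on HFD, against 17 of 90 and 41 of 286 without. Cd163 was found in 1 of 25 and 2 of 60 against 10 of 90 and 44 of 286. Nuclei with 3 or more cell cycle UMIs were also fewer beside Ccr2, with 7 of 25 and 27 of 60 against 62 of 90 and 194 of 286. Nuclei of 1 library are not replicates, and these counts were not tested. Control libraries held 3 and 1 nuclei with Ccr2 after thinning, too few to describe.

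Macrophages with a Lyve1 UMI were compared with those without. Lyve1 was found in 8.45%, 14.8%, 14.6% and 12.1% of thinned macrophages, against 0.983% to 5.66% of endothelial nuclei. The sums over the 6, 17, 19 and 42 nuclei with Lyve1 were tested against the other nuclei of the same libraries, with library as a block. Of 9867 genes, 22 were higher (0.223%) and 67 lower (0.679%) beside Lyve1, 0.902% in either direction. Cd163 stood at 1177, 149.6, 368 and 207 CPM in nuclei with Lyve1 and at 394, 22, 201 and 60.8 CPM in those without (log2 difference 1.37, SE 0.26, adjusted p = 0.000111). It was higher in 4 of 4 libraries, though its call ended without HFD YAP5SA (adjusted p = 0.0627).

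The other genes higher beside Lyve1 with the smallest adjusted p were Il16, Glis3, Osbpl9, Hormad2, Cd209f, Ripor2, Plekhg5, Wdpcp and Il21r, each of which lost its call when at least 1 of the HFD control, chow YAP5SA and HFD YAP5SA was left out (adjusted p from 0.104 for Il16 to 0.843 for Il21r). Ccr2 was lower beside Lyve1 (log2 difference -3.18, SE 0.52, adjusted p = 1.61e-06), with 47.1, 44.9, 12.3 and 5.9 CPM against 34.7, 251, 5.28 and 242. It was lower beside Lyve1 in the 2 YAP5SA libraries and higher in the 2 controls, and the call ended without HFD YAP5SA (adjusted p = 0.534). The other genes lower beside Lyve1 with the smallest adjusted p were Gpc6, Ebf1, Fgf13, Zfp804b, Plxdc2, Sema5a, Mast4, Rbms3 and Itga1, which kept their calls whichever library was left out. By DESeq2, Gpc6, Ebf1 and Zfp804b missed the threshold (adjusted p = 0.0771, 0.0776 and 0.417), and with nuclei split on all their UMIs Zfp804b moved from a log2 difference of -8.22 to -0.79 (adjusted p = 0.433). All but Zfp804b and Plxdc2 of these stood higher on average in other heart nuclei than in macrophages. Leaving out a library moved the counts to 52 and 65 without the chow control, 6 and 28 without chow YAP5SA, 7 and 29 without the HFD control and 2 and 26 without HFD YAP5SA. Without the block no gene was called.

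Few of the macrophage changes were called in the sums of all other nuclei. Of the 150 genes that rose, 109 could be tested in the sums of all other nuclei and 3 rose there as well, and of the 240 that fell, 210 could be tested and none fell. That test called 62 genes higher (0.626% of 9909) and 14 lower (0.141%) in all. Some named genes had folds in the same direction there without passing, such as Pvt1 at 1.53 (adjusted p = 0.0712), Alcam at 1.28 (adjusted p = 0.126) and Zfp804b at -1.90 (adjusted p = 0.0796). The difference itself was tested as an interaction between vector and population over both kinds of sum, an alternative added after the data were seen. It was called for 88 genes (0.874% of 10074), 24 of them more positive in macrophages and 64 more negative, and 47 were among the 390. The other nuclei are a mixture whose make-up differs between libraries.

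For Fn1 the YAP5SA effect in macrophages exceeded that in other nuclei by 3.78 on the log2 scale (SE 0.37, adjusted p = 0.00306). For Zranb3 the excess was 2.27 on the log2 scale (SE 0.28, adjusted p = 0.00864) and for Alcam 1.29 on the log2 scale (SE 0.24, adjusted p = 0.0417). The effect on Igf1 was lower in macrophages than in other nuclei by 2.28 on the log2 scale (SE 0.31, adjusted p = 0.0134), and that on P3h2 by 3.76 on the log2 scale (SE 0.33, adjusted p = 0.00257). Ccr2 gave a difference of -0.10 on the log2 scale (SE 0.63, adjusted p = 0.963), Spp1 an adjusted p of 0.849 and Cd163 a difference of -1.58 on the log2 scale (SE 0.42, adjusted p = 0.109), so that for these the effect in other nuclei was not shown to differ. All 3 are hardly expressed there, with means of 5.2, 5.98 and 1.96 CPM, and none was tested there alone. Ccr2 and Spp1 were higher in both YAP5SA libraries there too. In library order Ccr2 stood at 0.587, 5.74, 0.862 and 13.6 CPM and Spp1 at 0.024, 7.3, 0.037 and 16.6 CPM. Cd163 stood at 2.18, 0.892, 2.88 and 1.88 CPM, lower in both YAP5SA libraries.

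The maternal diet, as given by the titles, gave no gene past the threshold. The edgeR test of the 2 HFD sums against the 2 chow sums called 0 of 10074 genes (0.0%), with the smallest adjusted p at 0.9999. An unadjusted p under 0.05 was found for 131 genes (1.3%), and DESeq2 called 0 genes higher and 1 lower. With no filter on low levels the test called 3 and 30. With vector as a further term, at the main filter, 0 genes rose and 0 fell. In the main test each diet pools a YAP5SA and a control library, so the difference between arms counts in the spread. The lack of calls is therefore no evidence that diet had no effect.

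Genes named without having passed were low in level. The helicase gene Ddx43 stood at 7.37 CPM in the chow control, 13.7 in chow YAP5SA, 42.9 in the HFD control and 53.8 in HFD YAP5SA, higher in both HFD libraries, and the mitochondrial ribosome gene Mrps18c at 3.69, 15.7, 33.1 and 35.9 CPM. Junb, an AP-1 subunit gene, stood at 44.2, 121, 13.6 and 40.5 CPM, and the chemokine gene Ccl6 at 22.1, 47, 9.75 and 23.9 CPM. For both, each HFD library lay below the chow library of its own arm, but the chow control and HFD YAP5SA were close to each other. The other genes so named were Chid1, Tmem70 and Dynll2, higher on HFD, and Sirpb1b, Msh5 and Pfdn2, lower.

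Within the control arm, 779 genes were at least 2-fold higher on HFD (7.73% of genes tested) and 721 lower (7.16%). Within the YAP5SA arm, 516 were higher (5.12%) and 563 lower (5.59%). These are 1 library against 1, and the library chow YAP5SA differs from HFD YAP5SA in sex as well as in diet.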

How the data were processed

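Nuclei of 4 whole-heart libraries (10x Genomics 3′ single-nucleus RNA sequencing) were analysed from the UMI count matrices that the authors deposited. The counts are not normalized; Cell Ranger 7.1.0 and mm10 are named in the submitters' processing notes, which give no role or order, and no source used here states a filter on barcodes. The macrophage rule and the gene lists were chosen with earlier results of these data known, so no p-value was adjusted over a list and list counts are descriptions.

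Barcodes with under 500 genes or over 5% mitochondrial UMIs (432 to 748 per library) were left out first. Doublets were scored with Scrublet (scanpy 1.11.5), whose automatic threshold marked 0.0785% and 0.0115% of nuclei in the chow libraries and so did not work there. The top scores at 0.8% per 1000 nuclei were marked instead. It marked 1, 2, 0 and 2 macrophages, which were kept and removed only as an alternative. Macrophage counts were summed per library and tested with edgeR 4.0.16 (glmQLFit and glmQLFTest, TMM scaling, R 4.3.3) on genes with a mean of at least 10 CPM, with Benjamini-Hochberg adjustment. DESeq2 1.42.0 was an alternative. Fold changes of the tests are log2 values from the edgeR fit, with a median over all genes of 0.01 in the YAP5SA test. Folds of 1 library against 1 are log2 with a prior count of 0.5. The rule's own 8 genes and the 12 genes it excludes entered no list test. Shares carry exact Clopper-Pearson intervals (scipy 1.17.1), and intervals and the floor of 3 counts cover counting error only.

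Genes were named by rule: up to 10 per direction with the smallest adjusted p among those past the threshold, at a mean of at least 20 CPM and at least the level of other nuclei. Where fewer than 5 passed, the genes with the largest same-direction fold in both single-library contrasts filled up to 5. Rule genes, sex-linked transcripts, mitochondrial genes and unnamed models were left out, and a few list genes are not reported here. Enriched genes were the 20 with the largest ratio to other nuclei at a mean of at least 50 CPM. In the split by Lyve1 the level relative to other nuclei was not required. Promoter windows came from RefSeq (GRCm38.p6) and gene coordinates from GENCODE vM21, matched for 32158 gene IDs.

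On simulated counts at the real depths, the YAP5SA test called 67 of 88 genes changed 4-fold (76.1%), 17 of 98 changed 2-fold (17.3%) and 1 of 9874 unchanged. In that setting a change of 2-fold was mostly not detectable with 2 libraries per arm. Every gene was drawn with 1 common dispersion and the same expected share of UMIs in both libraries of an arm. The real libraries of an arm differ in diet and some in sex, so these rates need not hold for them. Alternatives covered scaling, filters, a diet term, each library left out, doublets and stricter limits.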

Additional observations from a re-analysis of the deposited data

Results flagged for a closer look

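For 7 genes of the lists, YAP5SA and control differed in opposite directions on the 2 diets, with the counting interval of each fold off 0. The difference between diets was not tested, since each rests on 1 library against 1. The log2 folds of YAP5SA over control were -1.20 on chow and 1.81 on HFD for the cholesterol exporter Abcg1, and -1.10 and 1.03 for the lysosomal lipase Lipa. For the fractalkine receptor Cx3cr1 they were -0.46 and 0.78, and for the transcription factor Zeb2 -0.30 and 0.31. Hif1a, the hypoxia-inducible factor, had folds of 1.57 and -0.53, the cytokine receptor subunit Csf2rb of 0.89 and -0.84, and the matrix protein gene Postn of 0.73 and -0.75.

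Macrophages also held UMIs of the added reference sequence nsp13, which no comparison used. There were 3 in chow YAP5SA and 2 in HFD YAP5SA, and 0 in either control. Other nuclei held 556 and 231 in the YAP5SA libraries against 0 and 1 in the controls.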

How the results depend on the processing

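Each group had 1 library, so that no replicate number pairs libraries. The fit with diet as a further term compares the arms within the diets. Of the values that answer a comparison, 176 kept their direction and size class under the alternatives run, 66 moved and none changed sign. The order of the chow libraries in macrophage share did turn at a mitochondrial share of at most 1% (1.46% in the control, 1.30% in YAP5SA), as did the balance of genes 2-fold higher and lower within chow under DESeq2 size factors (1275 and 1415). Of the alternatives for named genes, 964 kept their call, 204 lost it and none reversed. Every list call other than those of Spp1, Fn1, Ccr2, Abca1, Slc40a1, Slc9a9, Rgs5, Notch3 and Ebf1 ended with diet as a further term; the cause was not tested.

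The number of genes that rose and fell with YAP5SA was 62 and 129 by DESeq2, 415 and 392 with no filter on level (19096 genes), 78 and 115 at a mean of at least 50 CPM (4438 genes), and 13 and 44 with diet as a further term. It was 96 and 168 with at least 6 macrophage UMIs per nucleus, and 104 and 159 with under 3 pericyte UMIs, a limit chosen after seeing the data. Leaving out a library gave 212 to 407 genes that rose and 284 to 523 that fell.

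For HFD against chow, no filter gave 3 and 30, and DESeq2 0 and 1. For the Lyve1 split, no block gave 0 and 0, a split on all UMIs 62 and 94, total UMIs 52 and 69, RLE scaling 39 and 67, DESeq2 13 and 10, no filter 13 and 69, no doublets 7 and 35, and leaving out a library 2 to 52 and 26 to 65. A split of macrophages by MHC class II UMIs was planned and not run, since only 2, 2, 2 and 13 nuclei were positive.

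Of 1 library against 1, genes 2-fold higher and lower at a mean of at least 50 CPM were 401 and 282 for chow YAP5SA, 230.0 and 218 for HFD YAP5SA, 117 and 81 for HFD in control and 77 and 96 for HFD in YAP5SA. With no filter they were 2675 and 2608, 2607 and 3657, 1928 and 2167, and 1939 and 3303. The share of macrophages was 3.66%, 4.32%, 3.58% and 8.78% of nuclei under the cardiomyocyte limit, and 2.93%, 3.28%, 5.38% and 7.31% by the macrophage genes alone, an alternative chosen after seeing the data. Without F13a1 and Mrc1 in the rule it was 1.44% in the HFD control and 3.25% in HFD YAP5SA. Without thinning, Ccr2 was found in 22.1% and Cd163 in 18.4% of macrophages in HFD YAP5SA, and Fn1 in 20% in the HFD control and 51.5% in HFD YAP5SA.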
